A study of Saccharomyces cerevisiae with 24 samples.

Results

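The genes described here are 32 budding yeast genes of early meiosis, taken by symbol from a list of genes for meiotic double-strand breaks, the chromosome axis, strand exchange, synapsis and early meiotic control. The arrays measured 31 of the 32, out of 5449 genes in all, and each of the 31 was read by a single probe set. HED1 was not analysed here. The genes were taken by symbol, with no threshold on a measured value, though the choice was made with earlier results of these data known.

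RNA was measured on 24 Affymetrix arrays, 1 per culture, for 8 strains with 3 cultures each that the labels call biological replicates. The wild-type reference strain was compared with strains lacking SIP1, SIP2 or GAL83 (named sip1, sip2 and gal83 here), with the 3 strains lacking a pair of them (sip1 sip2, sip1 gal83 and sip2 gal83), and with the triple strain sip1 sip2 gal83, which lacks them all. Every strain was grown with air in a 1 L bioreactor at 30 °C, pH 5.0, on 10 g/L glucose at a dilution rate of 0.1 per h, and harvested at steady state, so no group was a sporulating culture by its label. The labels give neither ploidy nor mating type, nor whether more than 1 clone of a strain was used.

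Early meiotic genes are normally silent in growing yeast. Ume6 binds the URS1 element in their promoters and keeps them off through the Sin3-Rpd3 histone deacetylase, and in starved diploid cells Ime1 joins Ume6 and turns them on. Snf1, the yeast AMP-activated protein kinase, works with Snf4 and with Sip1, Sip2 or Gal83 as alternative β-subunits, and cells without Snf1 are known to fail to enter meiosis.

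Values are deposited log2 intensities, and each change is a log2 difference between strain means (n = 3 each) ± the standard error that limma gave from the 24 arrays together. Array values are listed in the order of replicates 1, 2 and 3. Calls required an adjusted p under 0.05 by the Benjamini-Hochberg method over all 5449 genes, and the number of arrays limits the precision. Values under 3 are taken as the lower end of the scale, where 5.8% of all values lie. The background of each probe set was not measured, so whether a level above 3 is an expressed level was not tested. Where a gene lay there in the reference, the fold is also given with every value under 3 raised to 3. That fold is a lower bound only where all triple-strain arrays lie at 3 or above. The words "at least" then refer to the fold between strain means and to the values under 3 alone. They give neither a minimum over cultures nor a bound on sampling error. Levels are not compared between genes, since probe sets differ in brightness. In bulk RNA, fewer cells that express a gene and less of its RNA per cell cannot be told apart.

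The deleted genes read near 2 in their deletion strains, except on 2 arrays. The array labelled sip1 sip2 replicate 3 read 6.0 for SIP2, and the array labelled sip1 gal83 replicate 2 read 9.72 for GAL83. Another array, sip2 gal83 replicate 1, correlated at only 0.988 with its replicates, where the lowest correlation within any other strain was 0.9951. They are called the 3 doubted arrays here.

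In the triple strain most of the meiotic genes were higher than in the reference. Of the 31, 20 rose, 1 fell and 10 did not pass the test, while 14.9% of all genes were called higher and 23.5% lower. The median change was 1.97 over the 31 genes and -0.04 over all genes. The rises ran from 0.41 to 9.04 on the log2 scale, and SLZ1, PHO92, SAE3, REC104, REC102 and IME2 were among the 10 largest rises of any gene on the array. The 30 largest rises held 15 of the meiotic genes. When the 3 doubted arrays were left out, as decided after seeing the data, 19 rose and 1 fell.

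**Figure D1:**
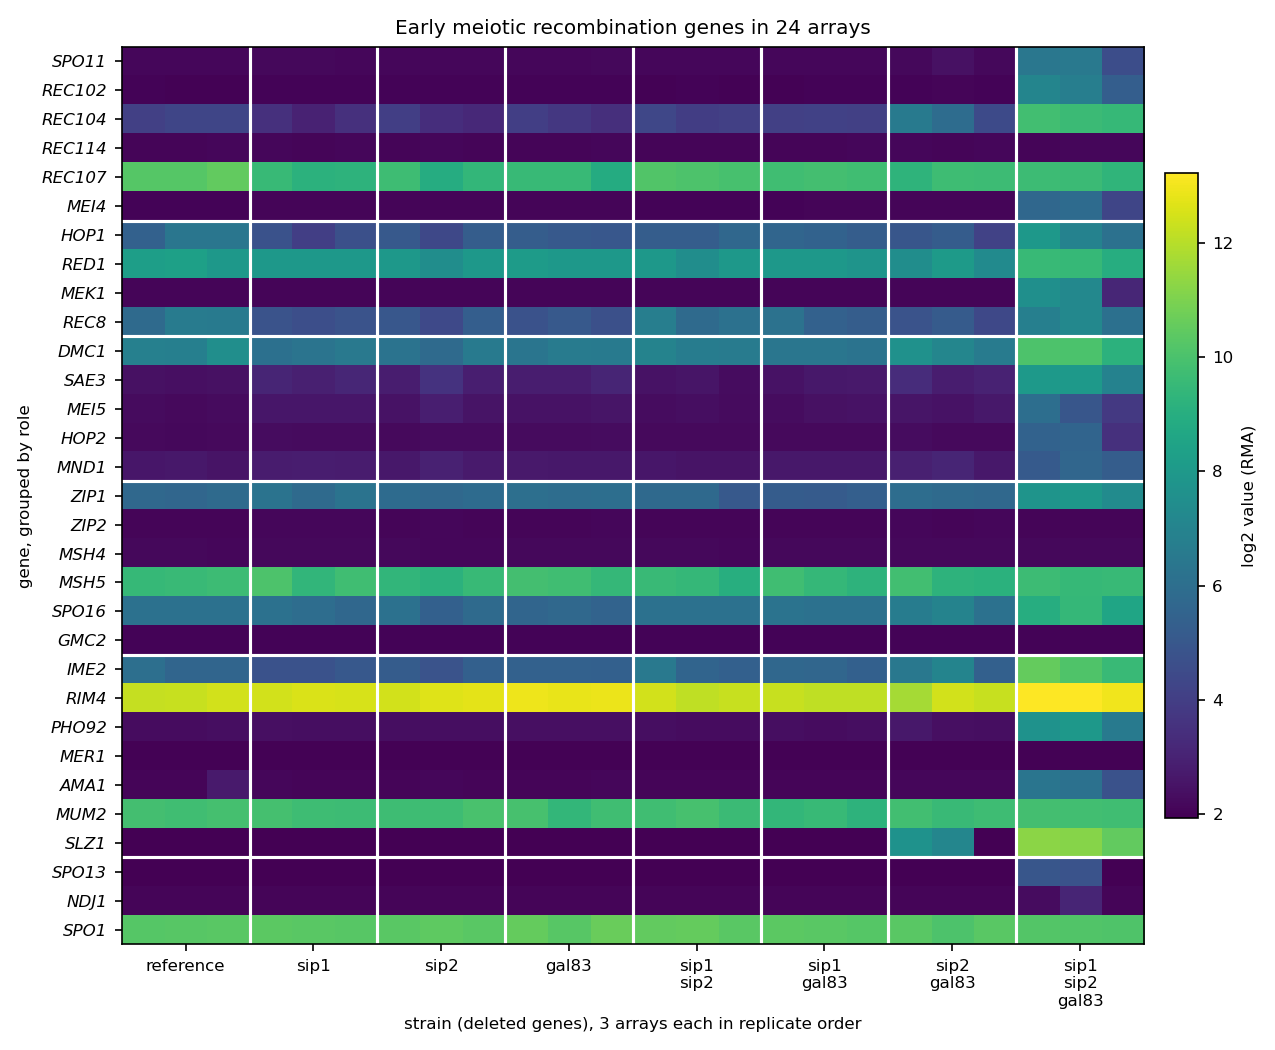
Deposited log2 values of the 31 measured genes (rows, ordered by role) on the 24 arrays (columns, ordered by strain and replicate), with colour for the level. Colours are to be compared along a row only. In 19 rows the 3 triple-strain columns on the right are higher than all 21 other columns, and 5 rows stay under 3 throughout.

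In 19 of the 31 genes, all 3 triple-strain arrays stood above all 21 other arrays, a pattern found in 5.78% of all genes. SPO13 is among the 19 by a small margin, since its replicate 3 read 1.95 and the highest other array 1.94. The reference arrays all lay under 3 for 18 of the genes. For 11 of these 18, all 3 triple-strain arrays lay at 3 or above, against 7.85% of the 293 genes with such a reference level. Replicate 3 of the triple strain gave the lowest of its 3 values in 19 of the 20 genes that rose. Without that array 21 genes rose with a median change of 2.80 over the 31, and without replicate 1 or 2 of the triple strain 20 rose, with medians of 1.88 and 1.82.

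Double-strand break formation was represented by 6 genes, of which 4 rose in the triple strain, 1 fell and 1 did not pass. SPO11 (YHL022C) encodes the enzyme that cuts DNA to start meiotic recombination. It read 6.40, 6.48 and 4.61 in the triple strain and between 2.13 and 2.45 on every other array. The groups did not overlap, and the change was 3.69 ± 0.30 (limma adjusted p = 6.85e-08), or at least 7.11-fold with values under 3 raised to 3. REC102 (YLR329W) and REC104 (YHR157W) encode partners of Spo11. REC102 read 7.06, 6.74 and 5.29 in the triple strain and between 2.01 and 2.08 elsewhere, a change of 4.34 ± 0.26 (adjusted p = 1.65e-09) and at least 10.3-fold. REC104 differed in having a reference level above 3: it read 4.07, 4.29 and 4.28 in the reference and 9.81, 9.63 and 9.50 in the triple strain. The change of 5.44 ± 0.34 corresponds to 43.3-fold (adjusted p = 2.9e-09).

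MEI4 (YER044C-A), whose protein acts with Rec114 and Mer2 in break formation, read 5.69, 5.88 and 4.30 in the triple strain and between 2.05 and 2.06 elsewhere (change 3.24 ± 0.24, at least 4.9-fold). Its partner REC114 (YMR133W) stayed between 2.09 and 2.11 on all 24 arrays. REC107 (YJR021C), which encodes Mer2, went the other way. It read 10.23, 10.26 and 10.50 in the reference and 9.68, 9.64 and 9.31 in the triple strain, so it was well above the low end throughout and lower in the triple strain without overlap (-0.79 ± 0.19, limma adjusted p = 0.00381). REC107 was thus the single gene of the 31 called lower in that strain.

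Genes of the chromosome axis and its cohesin changed less evenly, with 2 of 4 called. RED1 (YLR263W), for an axis protein, read 8.27, 8.37 and 7.94 in the reference and 9.56, 9.47 and 8.98 in the triple strain, a rise of 1.14 ± 0.19 (adjusted p = 0.000188). MEK1 (YOR351C) encodes the kinase that acts with Red1 and Hop1 to steer repair towards the homologous chromosome. It read 7.53, 7.21 and 3.16 in the triple strain and 2.07 to 2.08 on all other arrays, so that replicate 3 was near the low end while the other replicates were far above it. The change was 3.89 ± 0.68 (limma adjusted p = 0.000246), or 7.82-fold between strain means with values under 3 raised to 3. The adjusted p was 0.0672 when each strain had a spread of its own, an alternative added after seeing the data.

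HOP1 (YIL072W), for the axis protein bound by Red1, read 5.43, 6.37 and 6.36 in the reference and 7.95, 6.93 and 6.15 in the triple strain. These ranges overlap, and the difference of 0.95 ± 0.38 did not pass (limma adjusted p = 0.0574). It passed without triple-strain replicate 3 (adjusted p = 0.00993), without sip2 gal83 replicate 3 (0.0466), after median centring (0.0371) and after quantile normalization (0.00769). REC8 (YPR007C) encodes the meiotic cohesin subunit. Its values of 6.80, 7.18 and 6.10 in the triple strain overlapped the reference values of 5.85, 6.63 and 6.53 (0.36 ± 0.33, adjusted p = 0.422, or 0.0454 after quantile normalization).

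**Figure D2:**
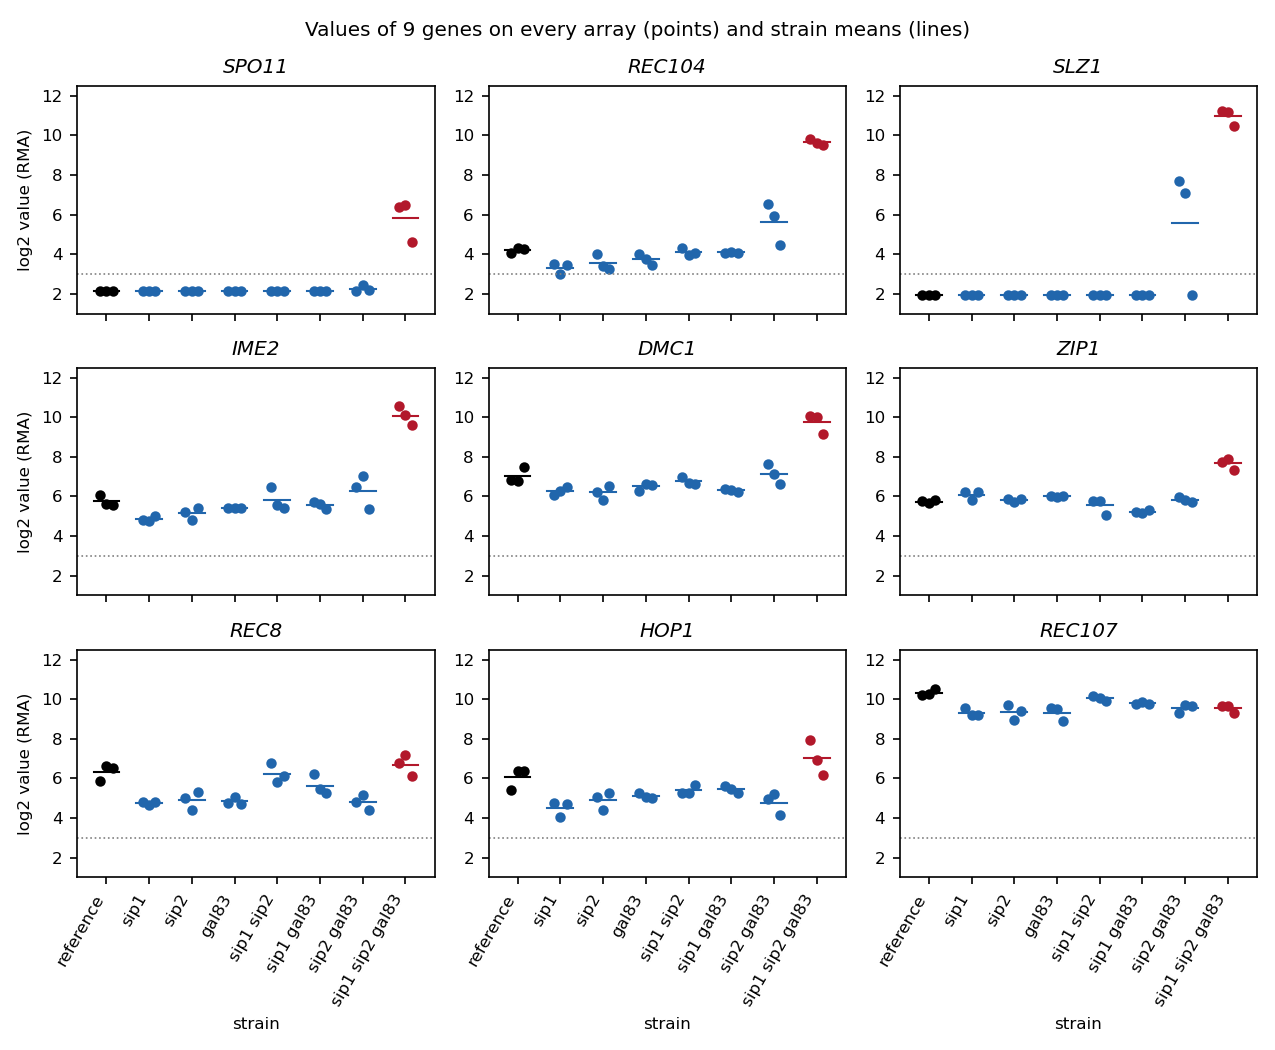
Deposited log2 values on each array (points) for 9 of the genes, one panel per gene, with the 8 strains on the horizontal axis, the strain mean as a line and a dotted line at 3. SLZ1 reads 11.25, 11.17 and 10.49 in the triple strain and 7.69, 7.11 and 1.95 in sip2 gal83, and REC8 is lower in the single deletion strains than in the reference.

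All 5 measured genes of strand exchange rose in the triple strain, with a median of 2.71. DMC1 (YER179W) encodes the meiotic RecA-like recombinase. It read 6.82, 6.79 and 7.50 in the reference and 10.07, 10.02 and 9.17 in the triple strain, a rise of 2.71 ± 0.27 or 6.56-fold (adjusted p = 6.27e-07). SAE3 (YHR079C-A) and MEI5 (YPL121C) encode the pair of proteins that loads Dmc1. SAE3 read 8.04, 8.03 and 6.94 in the triple strain against 2.44, 2.37 and 2.42 in the reference, a change of 5.26 ± 0.24 (adjusted p = 3.23e-11) and at least 25.5-fold. MEI5 read 6.02, 4.96 and 3.81 against 2.28, 2.23 and 2.24 (2.68 ± 0.32, at least 3.81-fold). Both were above all other arrays in all 3 triple-strain cultures.

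HOP2 (YGL033W) and MND1 (YGL183C) encode a second pair, which helps Dmc1 find the homologous duplex. HOP2 read 5.46, 5.58 and 3.51 in the triple strain and between 2.19 and 2.29 elsewhere (2.65 ± 0.32, adjusted p = 7.36e-06, at least 3.61-fold). MND1 read 5.13, 5.63 and 5.25 against 2.59, 2.64 and 2.51 in the reference (2.76 ± 0.11, adjusted p = 7.28e-12, at least 5.05-fold). MND1 was the steadier of the pair across the triple-strain cultures, and in neither gene did the triple strain overlap another strain.

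Of the 6 genes for synapsis and crossover formation, 2 rose and 4 did not pass. ZIP1 (YDR285W), for the transverse filament protein of the synaptonemal complex, read 7.76, 7.89 and 7.36 in the triple strain and 5.75, 5.67 and 5.82 in the reference (1.93 ± 0.16, 3.8-fold, adjusted p = 1.05e-07). SPO16 (YHR153C), whose protein acts with Zip2 in crossover formation, read 8.97, 9.43 and 8.55 against 6.13, 6.14 and 6.15 (2.85 ± 0.21, 7.19-fold, adjusted p = 2.96e-08). Both genes had a reference level above 3 and no overlap between the groups. SPO16 read 6.13 to 6.15 on all reference and sip1 sip2 arrays, but 5.50 to 5.74 in gal83. The background of its probe set was not measured, so whether its fold starts from an expressed level was not tested. ZIP2 (YGL249W), MSH4 (YFL003C) and GMC2 (YLR445W) stayed under 3 on all 24 arrays, at 2.08 to 2.11, 2.12 to 2.17 and 2.01 to 2.03. MSH5 (YDL154W), which encodes the partner of Msh4, read 9.51, 9.56 and 9.65 in the reference and 9.67, 9.49 and 9.53 in the triple strain, a difference of -0.01 ± 0.20.

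Among 7 regulators that act on transcripts or proteins, 5 rose. SLZ1 (YNL196C), which encodes a subunit of the complex that methylates adenosine in meiotic messenger RNA, had the largest rise of all 5449 genes. It read 11.25, 11.17 and 10.49 in the triple strain and 1.92 to 1.93 in the reference, a change of 9.04 ± 0.88 (adjusted p = 6.28e-07) and at least 251-fold. PHO92 (YDR374C) encodes a protein that binds that methylated RNA. It read 7.68, 7.94 and 6.55 against 2.30, 2.29 and 2.35 (5.08 ± 0.21, adjusted p = 1.07e-11, at least 20.9-fold). MUM2 (YBR057C), another subunit of the methylation complex, read 9.84, 9.77 and 9.87 in the reference and 9.83, 9.81 and 9.75 in the triple strain, and did not pass (-0.03 ± 0.11, adjusted p = 0.863).

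IME2 (YJL106W) encodes the kinase that drives entry into meiosis. It read 6.06, 5.61 and 5.60 in the reference and 10.56, 10.11 and 9.60 in the triple strain, a rise of 4.34 ± 0.34 or 20.2-fold (adjusted p = 5.08e-08). On the gal83 arrays IME2 read 5.40 to 5.41, and whether its fold starts from an expressed level was not tested. AMA1 (YGR225W), for the meiotic activator of the anaphase-promoting complex, read 6.31, 6.15 and 4.76 against 2.09, 2.10 and 2.74 (3.43 ± 0.26, adjusted p = 3.13e-08, at least 6.7-fold). RIM4 (YHL024W), for an RNA-binding repressor of translation, was bright in every strain. It read 12.25, 12.28 and 12.45 in the reference and 13.22, 13.22 and 12.97 in the triple strain, a rise of 0.81 ± 0.14 or 1.75-fold (adjusted p = 0.000175). MER1 (YNL210W), for a meiotic splicing activator, stayed between 1.99 and 2.01 on all arrays.

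The last 3 genes act in chromosome segregation, at telomeres and in later steps. SPO13 (YHR014W), which keeps sister chromatids together in the first meiotic division, read 4.95, 4.80 and 1.95 in the triple strain and 1.93 to 1.94 elsewhere, so replicate 3 did not leave the low end. The change of 1.97 ± 0.47 passed in the fit with 1 spread for all strains (limma adjusted p = 0.00335) but not with a spread for each strain (0.128). With values under 3 raised to 3 the fold was 2.38, which is not a lower bound, since replicate 3 was raised as well. NDJ1 (YOL104C), for a telomere protein of meiotic prophase, read 2.28, 3.08 and 2.09 against 2.08 on all 3 reference arrays. Its change of 0.41 ± 0.15 (adjusted p = 0.0362) was lost with values under 3 raised to 3 (0.19), without any 1 of the 3 reference arrays (0.0735 to 0.0779), without the doubted arrays (0.0501) and with a spread for each strain (0.253). SPO1 (YNL012W), for a phospholipase-like protein of spindle pole body duplication, read 10.25, 10.31 and 10.34 against 10.20, 10.15 and 10.10 (-0.14 ± 0.09, adjusted p = 0.193, or 0.0218 with a spread for each strain).

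The common spread is estimated over 8 strains, and for many of these genes the other 7 lie at the low end with almost no spread. For them it understates the spread among the triple-strain cultures. For others, such as SLZ1 and REC104, the common standard error was larger. It was 0.88 and 0.34, against 0.19 and 0.09 with a spread for each strain. With a spread for each strain 17 genes rose and 2 fell, with MEK1, SPO13 and NDJ1 no longer called higher and SPO1 called lower. Median centring and quantile normalization each gave 22 higher and 1 lower. Over all genes the share of called genes that were higher was 38.7%, and 56.3% and 52.1% with those scalings.

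**Figure D3:**
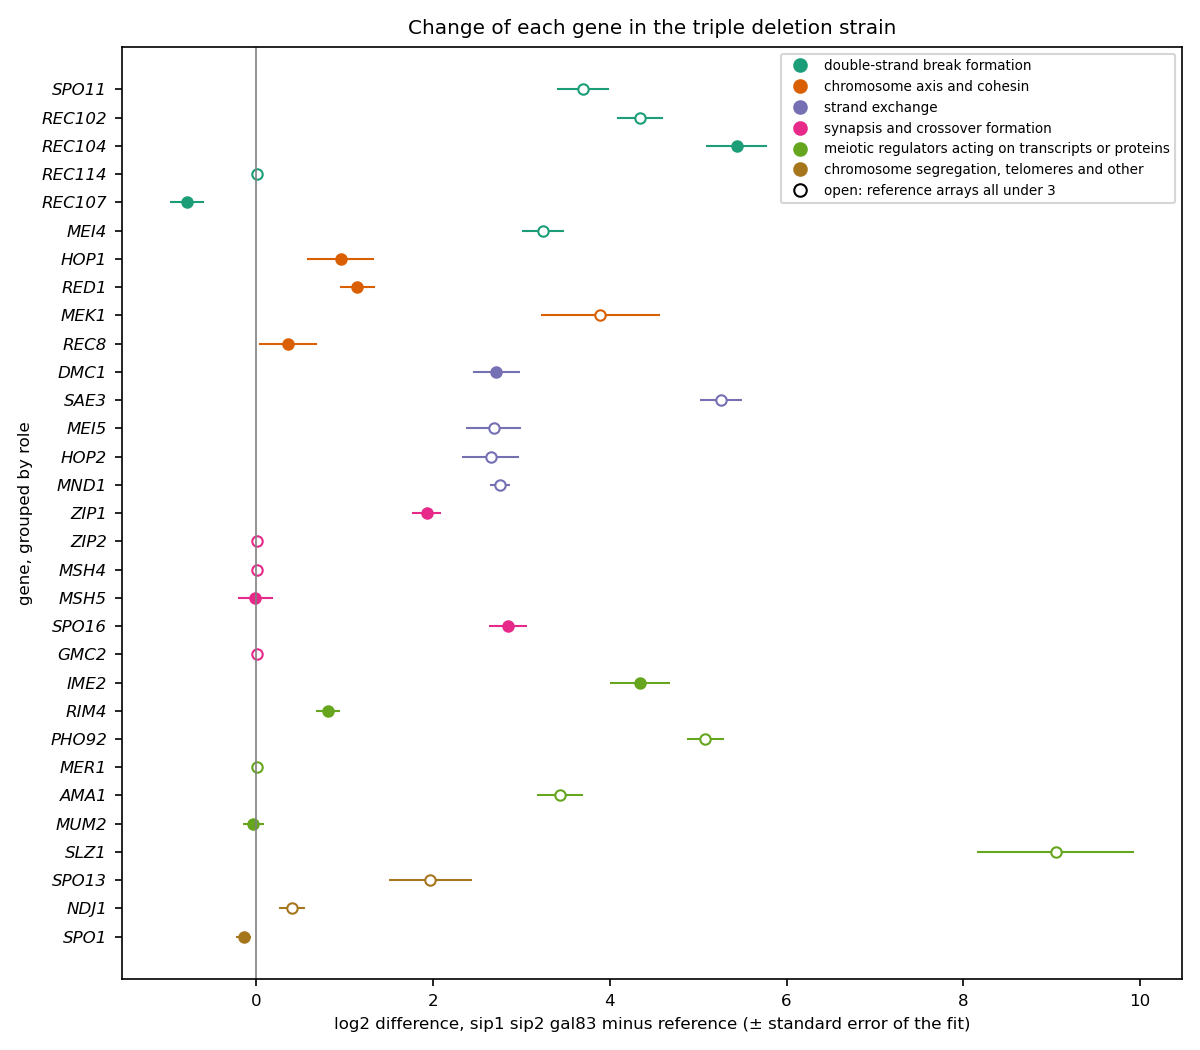
Log2 change in the triple strain against the reference for each of the 31 genes (horizontal axis, points ± standard error), grouped by role in colour on the vertical axis. Open points mark genes whose reference arrays all lie under 3. Changes run from -0.79 for REC107 to 9.04 for SLZ1.

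The triple strain was also set against each double strain, which asks what loss of the last β-subunit gene does. These comparisons share the triple-strain arrays with each other and with the comparison above. Against sip1 sip2, which still has GAL83, 21 genes were higher (14.1% of all genes) and SPO1 was lower (-0.32 ± 0.09, limma adjusted p = 0.00907). Against sip1 gal83, which still has SIP2, 22 were higher and none lower (6.02% of all genes higher). Against sip2 gal83, which still has SIP1, 21 were higher and none lower (9.54% of all genes higher).

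HOP1, not called against the reference, was higher in the triple strain than in each double strain, by 1.61 ± 0.38, 1.57 ± 0.38 and 2.24 ± 0.38 in that order (limma adjusted p = 0.00388, 0.0116 and 0.000675). REC8 was higher than in sip1 gal83 by 1.07 ± 0.33 (adjusted p = 0.0389) and than in sip2 gal83 by 1.90 ± 0.33 (0.000723), and differed from sip1 sip2 by 0.45 ± 0.33 (0.316). SLZ1 was higher than in sip2 gal83 by 5.38 ± 0.88 (adjusted p = 0.000498), a smaller difference than the 9.04 ± 0.88 against either of the other double strains. How the calls of single genes against the double strains depend on scaling or on single arrays is not given here. Each double strain includes a doubted array. With a spread for each strain, the number of genes higher than in sip2 gal83 fell to 10.

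In sip2 gal83 itself, 4 genes were higher than in the reference and 4 lower, where 10.8% of all genes were called higher and 26.4% lower. SLZ1 read 7.69 and 7.11 on replicates 1 and 2 but 1.95 on replicate 3, a change of 3.66 ± 0.88 (limma adjusted p = 0.00478). REC104 read 6.53, 5.91 and 4.45, all above the reference (1.42 ± 0.34, adjusted p = 0.00487). The SLZ1 call was lost with array weights (0.143) and with a spread for each strain (0.232), and so was that of REC104 (0.0597 and 0.194). SAE3 read 3.38, 2.84 and 3.01 (0.67 ± 0.24, adjusted p = 0.0367) and MND1 read 2.90, 3.11 and 2.66 (0.31 ± 0.11, adjusted p = 0.0379). Both calls were lost without the doubted arrays (0.18 and 0.11) and with values under 3 raised to 3 (0.686 and 0.769). Leaving out any 1 of 5 arrays also ended each of them, at 0.0513 to 0.153 for SAE3 and 0.0569 to 0.167 for MND1.

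The genes called lower in sip2 gal83 all had reference levels above the low end. REC8 read 4.83, 5.18 and 4.38 (-1.54 ± 0.33, limma adjusted p = 0.00199) and REC107 read 9.29, 9.72 and 9.65 (-0.78 ± 0.19, adjusted p = 0.0053). HOP1 read 4.93, 5.20 and 4.16 (-1.29 ± 0.38, adjusted p = 0.0145), a call lost without reference replicate 2 (0.0596), reference replicate 3 (0.0576) or sip2 gal83 replicate 3 (0.0624). RED1 overlapped the reference at 7.47, 8.08 and 7.33 (-0.57 ± 0.19, adjusted p = 0.0301) and was not called without the doubted arrays (0.125), nor without reference replicate 1 or 2 or sip2 gal83 replicate 1 or 3 alone (0.0805 to 0.117). Leaving out the doubted arrays changed the counts to 2 higher and 3 lower. IME2 read 6.46, 7.03 and 5.38 there and was not called.

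In the single deletion strains few of these genes changed, and most of those were lower. In sip1, 1 gene was higher and 6 were lower, against 10.3% and 29.1% of all genes. In sip2, 1 was higher and 4 were lower (8.55% and 32.1% of all genes), and in gal83, 1 was higher and 2 were lower (10.6% and 30.6%). For no single strain were the lower shares above those of all genes. The 3 comparisons share the reference arrays, and the median change of all genes was -0.09 in sip1, -0.12 in sip2 and -0.10 in gal83.

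REC8 was called lower in each single strain. It read 4.80, 4.65 and 4.80 in sip1 (-1.59 ± 0.33, limma adjusted p = 0.00108), 4.98, 4.42 and 5.32 in sip2 (-1.43 ± 0.33, 0.00208) and 4.77, 5.07 and 4.70 in gal83 (-1.49 ± 0.33, 0.00167), with no overlap with the reference. REC107 was lower in each as well. It read 9.54, 9.18 and 9.23 in sip1 (-1.01 ± 0.19), 9.73, 8.93 and 9.42 in sip2 (-0.97 ± 0.19) and 9.56, 9.53 and 8.89 in gal83 (-1.01 ± 0.19), with adjusted p of 0.000563, 0.000669 and 0.000567. The REC8 calls in sip1 and sip2 were lost after quantile normalization (0.0529 and 0.137).

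HOP1 read 4.77, 4.03 and 4.70 in sip1 (-1.55 ± 0.38, limma adjusted p = 0.00393) and 5.06, 4.38 and 5.24 in sip2 (-1.16 ± 0.38, 0.0216). Both lay below the reference range, but the sip2 call was lost without reference replicate 2 (0.0833), reference replicate 3 (0.0819) or sip2 replicate 2 (0.104), and both were lost after quantile normalization (0.142 and 0.533). DMC1 read 6.08, 6.29 and 6.48 in sip1 (-0.75 ± 0.27, adjusted p = 0.0316) and 6.22, 5.85 and 6.55 in sip2 (-0.83 ± 0.27, 0.0179). Leaving out reference replicate 3, its highest reference array, ended both calls (0.164 and 0.105), and sip1 replicate 1 or 2 (0.107 and 0.0663) or sip2 replicate 2 (0.0914) ended the respective one. After quantile normalization DMC1 was called in neither (0.943 and 0.86).

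IME2 and REC104 were called lower in sip1 only by a narrow margin. IME2 read 4.79, 4.78 and 5.03 (-0.89 ± 0.34, limma adjusted p = 0.0457), and leaving out any 1 of 16 arrays ended the call (0.0503 to 0.148). After quantile normalization its change turned to 0.05 (0.922). REC104 read 3.49, 3.0 and 3.48 (-0.89 ± 0.34, adjusted p = 0.0476), a call ended by leaving out any 1 of 21 arrays (0.0501 to 0.159).

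The genes called higher in single strains were SAE3 and RIM4. SAE3 read 3.11, 2.92 and 3.12 in sip1 (0.64 ± 0.24, limma adjusted p = 0.0404) and 2.84, 3.59 and 2.87 in sip2 (0.69 ± 0.24, 0.0275). These values are close to the low end, and both calls were lost with values under 3 raised to 3 (0.842 and 0.507), without any 1 of the reference arrays, without any 1 of the sip1 arrays in sip1 and without sip2 replicate 2 in sip2. RIM4 read 12.93, 12.84 and 12.88 in gal83, above all reference arrays (0.56 ± 0.14, adjusted p = 0.00359).

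Scaling decided much of this balance. With each array centred on its median, 8 genes were higher and 3 lower in sip1, 8 and 4 in sip2, 8 and 2 in gal83, and 10 and 4 in sip2 gal83. In each of these 4 strains the genes called higher then included all 5 that lay under 3 on every array. With quantile normalization 5 were higher and 1 lower in sip1, 6 and 1 in sip2, 5 and 2 in gal83, and 7 and 2 in sip2 gal83. Over all genes the called genes that were higher made up 26.2%, 21.0% and 25.6% in sip1, sip2 and gal83 and 29.0% in sip2 gal83. They made up 55.4%, 55.4%, 55.9% and 54.7% with centring, and 53.0%, 52.1%, 50.4% and 54.3% with quantile normalization.

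In the other double strains few or none of the genes were called. In sip1 sip2 none of the 31 genes was called by limma, 1 (RED1, 7.97, 7.45 and 7.93) had an unadjusted p under 0.05, and none was called with array weights or a spread for each strain. All genes gave 0.11% higher and 0.147% lower there. In sip1 gal83 none was higher and 2 were lower, against 3.6% and 7.3% of all genes. MUM2 read 9.40, 9.52 and 9.22 (-0.45 ± 0.11, limma adjusted p = 0.018), a call lost without reference replicate 3 (0.0637) or sip1 gal83 replicate 3 (0.108). ZIP1 read 5.20, 5.15 and 5.34 (-0.52 ± 0.16, adjusted p = 0.0486), a call lost without any 1 of 17 arrays (0.0523 to 0.143). Over all genes the called genes that were higher made up 33.0% in sip1 gal83, and 41.0% and 49.8% with centring and quantile normalization. In sip1 sip2 they made up 42.9%, and 47.1% and 56.2% with those scalings.

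Interaction terms ask whether deleting a gene has another effect when a second one is already gone, that is, the double strain minus both single strains plus the reference. For SIP1 with SIP2, 10 of the 31 genes were called, 6 above and 4 below what the single strains add up to, where 52.4% of all genes were called. For SIP1 with GAL83, 8 were called, 5 above and 3 below (51.3% of all genes). For SIP2 with GAL83, 9 were called, 7 above and 2 below (47.8% of all genes). The share called among the 31 genes lay below that of all genes in each term. With median centring the terms gave 6 above and 9 below, 3 and 11, and 7 and 7. With quantile normalization they gave 2 and 7, 2 and 7, and 3 and 3.

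REC8 was called in all 3 terms, at 2.93 ± 0.46, 2.36 ± 0.46 and 1.37 ± 0.46 (limma adjusted p = 5.01e-05, 0.000389 and 0.0202). It was lower in each single strain but read 6.76, 5.83 and 6.14 in sip1 sip2 and 6.20, 5.44 and 5.24 in sip1 gal83, against 5.85, 6.63 and 6.53 in the reference. REC107 was likewise called in all 3, at 1.71 ± 0.27, 1.48 ± 0.27 and 1.20 ± 0.27 (adjusted p = 5.47e-05, 0.000219 and 0.00153). RIM4 went below the sum in all 3, at -0.54 ± 0.19, -0.90 ± 0.19 and -1.06 ± 0.19 (adjusted p = 0.0254, 0.000868 and 0.000246). For REC8 the SIP2 with GAL83 term was lost without any 1 of 3 arrays (0.0523 to 0.0602), and for RIM4 the SIP1 with SIP2 term without any 1 of 6 (0.0502 to 0.0645). Each term includes the same reference arrays, so the 3 terms are not independent of each other. A moderated F test for any difference among the 8 strains called 24 of the 31 genes, against 71.4% of all genes.

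Lists of related genes were counted in the triple strain in the same fit, where 14.9% of all genes rose, 23.5% fell and the median change was -0.04. Of 11 upstream regulators of early meiotic genes, 1 rose and 8 fell, and after median centring 1 rose and 3 fell, after quantile normalization 1 and 5. Their median change was -0.19. UME6 rose by 0.65 ± 0.15 (limma adjusted p = 0.00327), from 10.62 to 10.99 on the reference arrays to 11.39 to 11.62 in the triple strain. IME1, for the activator, fell by 0.81 ± 0.19 (adjusted p = 0.00278), from 8.51 to 9.06 in the reference to 7.71 to 8.07. SSN8, for cyclin C, a repressor of early meiotic genes, fell by 0.82 ± 0.15 (adjusted p = 0.000475). IME1 was also lower in gal83 (-0.51 ± 0.19), sip1 gal83 (-0.99 ± 0.19) and sip2 gal83 (-1.38 ± 0.19), with adjusted p of 0.0374, 0.00285 and 8.4e-05, and UME6 was lower in sip1 (-0.71 ± 0.15), sip2 (-0.75 ± 0.15) and gal83 (-0.84 ± 0.15), with adjusted p of 0.00173, 0.000984 and 0.000417.

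Of 9 other early meiotic genes, 4 rose and 2 fell, with a median of 0.15. PCH2, for an ATPase that remodels Hop1, read 2.12 to 2.13 in the reference and 5.12 to 6.42 in the triple strain (3.57 ± 0.19, limma adjusted p = 2.22e-10). CSM4, for a protein of meiotic telomere movement, rose by 2.32 ± 0.25 (adjusted p = 1.77e-06). SPO22, which encodes Zip4 of the crossover machinery, fell by 0.69 ± 0.13 (adjusted p = 0.000669), and MMS4, for a subunit of a resolvase also used in mitotic cells, fell by 0.66 ± 0.18 (0.0078).

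Middle sporulation genes, the next wave of the programme, were called in 6 of 29 cases, 2 higher and 4 lower, with a median of 0.00. Both shares lay below the 14.9% and 23.5% of all genes, but genes of this list that lie at the low end throughout were not set apart. NDT80, for the activator of middle sporulation genes, read 6.66 to 7.15 in the reference and 6.37 to 6.73 in the triple strain (-0.25 ± 0.21, limma adjusted p = 0.376). SPS100, for a spore wall protein, fell by 2.62 ± 0.25 (adjusted p = 5.12e-07) and GAS2, for a spore wall glucan enzyme, fell by 1.16 ± 0.30 (0.00589). OSW2, another spore wall gene, rose by 0.67 ± 0.14 (adjusted p = 0.00103). SPR1, for a sporulation glucanase, rose by 0.60 ± 0.20 (0.0259), a call lost with a spread for each strain (0.211), after quantile normalization (0.127) and without triple-strain replicate 2 (0.0859) or any 1 reference array (0.0573 to 0.0603).

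Recombination and repair genes that mitotic cells also use were called in 9 of 22 cases, 3 higher and 6 lower, or 4 and 4 with either other scaling, with a median of -0.16. These shares are near those of all genes, 14.9% higher and 23.5% lower. SAE2, which helps to trim break ends, fell by 1.47 ± 0.44 (limma adjusted p = 0.0141), a call lost without reference replicate 2 or 3 or triple-strain replicate 3 (0.0518 to 0.0642), and RAD55, a gene of recombinational repair, fell by 0.98 ± 0.22 (0.00225). RDH54, for a DNA translocase, rose by 0.33 ± 0.07 (adjusted p = 0.00247). RFA1, for the large subunit of replication protein A, rose by 0.24 ± 0.07 (0.00906), a call lost without reference replicate 3 (0.0614). Of 9 genes for mitotic cohesin and axis partners, 2 rose and none fell, and SCC2, for a cohesin loader, rose by 0.45 ± 0.07 (adjusted p = 0.000133).

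**Figure D4:**
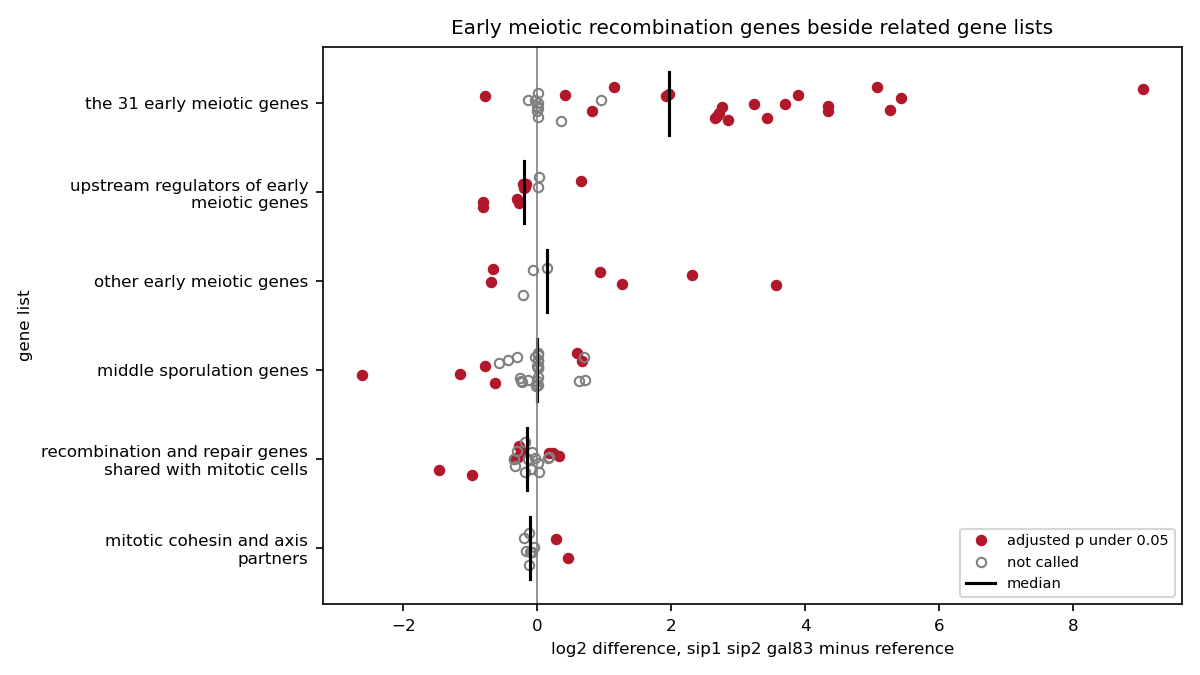
Log2 change in the triple strain against the reference for the 31 genes together and for the measured genes of each related list (1 point per gene, spread vertically for legibility), with the median as a line and called changes filled. The median is 1.97 for the 31 genes and 0.00 for the middle sporulation genes.

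Mating-type genes were read because yeast cells need the information of both mating types to enter meiosis. All 4 α-specific markers and all 5 haploid-specific markers stood above 3 on every array, with GPA1 between 11.94 and 12.37 and STE3 between 12.33 and 12.99. Of the 6 a-specific markers, MFA2 stayed between 2.03 and 2.77 on all arrays, while the other 5 stood above 3 on every reference array. Their reference means were 9.65 for MFA1, 8.26 for STE2, 7.85 for STE6, 5.78 for AGA2 and 4.82 for BAR1. All these means lie under 9.746, the bound of the lowest 25% of genes by mean. Those of the α-specific markers ran from 12.52 to 15.03, though probe sets differ in brightness. A value above 3 does not show that a gene was expressed, and mating type was not tested. In the triple strain 3 of 6 a-specific genes fell and none rose: STE2 by 2.50 ± 0.30 and AGA2 by 2.60 ± 0.52 (limma adjusted p = 6.94e-06 and 0.000872), with MFA1 among them. This was shared with other strains, since 3 of the 6 also fell in sip1 gal83 and 4 in sip2 gal83. In each single strain 2 fell, and in sip1 sip2 none was called. None of the 6 was called in the triple strain against sip1 gal83 or sip2 gal83. Of the α-specific genes, MF(ALPHA)2 rose in the triple strain against the reference by 1.05 ± 0.22 (adjusted p = 0.00147), and 3 rose after median centring. Of the haploid-specific genes 1 rose and 2 fell. STE18 rose by 0.43 ± 0.13 (adjusted p = 0.012), a call lost without reference replicate 1 (0.0614), and FAR1 fell by 0.52 ± 0.14 (0.00723). RME1, for a repressor of IME1 that is also on the list of upstream regulators, fell by 0.31 ± 0.10 (adjusted p = 0.0175), a call lost after median centring (0.0734) and without reference replicate 3 (0.0567) or triple-strain replicate 3 (0.0645). The part of the mating-type genes in the rise of the meiotic genes was not tested.

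The genes that rose lie on 9 chromosomes. Chromosome VIII holds 6 of the measured genes, and all 6 (SPO11, REC104, SAE3, SPO16, RIM4 and SPO13) rose in the triple strain. The share of all genes of that chromosome that rose was not counted. The next gene on either side of the 20 that rose was measured and not itself on the list in 35 cases. Of these neighbours 9 rose and 8 fell, with a median change of 0.01, where 14.9% of all genes rose and 23.5% fell. None of them overlapped its meiotic neighbour in the annotation.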

How the data were processed

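Total RNA was measured on 24 one-colour arrays. The deposited values are log2 intensities per probe set, which the authors made with the RMA method of affy, as the submitters' processing notes record without a version. The notes do not say which arrays were normalized together. RMA compresses differences at its low end, so small changes there are hard to see. Array medians ran from 10.89 to 11.06 and values from 1.66 to 15.93.

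Of 5716 probe sets, 5498 named 1 gene and 218 none. All 5498 identifiers matched the RefSeq gene table, used for names and gene order only. The probe set with the highest mean was kept per gene, which left out 49. In limma 3.58.1 (run under R 4.3.3), lmFit gave each strain its own mean and eBayes moderated the common spread before two-sided tests of the contrasts. Groups came from the sample titles. No filter on low values was applied to the 5449 genes. The highest correlation between 2 arrays was 0.9988, so no array had the same values as another. Whether the same RNA was put on 2 arrays cannot be told from this.

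The 32 genes, the related lists and the tests were chosen with earlier results of these data known. Array values are given for a panel of 8 genes, for up to 6 called genes each way per comparison with non-overlapping groups, for genes at the low end in the reference, and further genes of the 32 chosen after their values were seen. Of each related list up to 2 called genes each way are named by the same rule, with IME1 and UME6 named in any case and NDT80, GPA1, STE3, MFA1 and MFA2 chosen after their values were seen. The fit was tested on simulated data for the triple strain against the reference (5449 genes). It recovered 80%, 92%, 98% and 100% of changes of 0.5, 1, 2 and 4, with 11 false calls among 196. Whether these rates hold for genes whose spread differs between strains, as for many at the low end here, was not tested. For such genes they give neither the error rate nor the power of the calls. Alternatives were 2 other scalings, 3 treatments of low values, other spread models, all probe sets, a replicate block and leaving out arrays. A search for promoter motifs was not run.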

Additional observations from a re-analysis of the deposited data

Results flagged for a closer look

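The interaction terms, the test of whether deleting one β-subunit gene has another effect once a second is gone, were called for the following genes in the limma fit. All values are log2 differences of the double strain from the sum of the single-strain changes, and values in parentheses are adjusted p.

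For SIP1 with SIP2 the term was above 0 for REC8 at 2.93, HOP1 at 2.06, REC107 at 1.71, IME2 at 1.57, REC104 at 1.47 and DMC1 at 1.32. After quantile normalization HOP1, IME2, REC104 and DMC1 were not called (0.415, 0.925, 0.804 and 0.897). The term was below 0 for SAE3 at -1.31, ZIP1 at -0.62, RIM4 at -0.54 and MND1 at -0.47. With values under 3 raised to 3, SAE3 stood at -0.28 (0.485) and MND1 at 0 and neither was called. MND1 was also lost without sip2 replicate 2 (0.0552) and with array weights (0.094). ZIP1 was lost without any 1 of 6 arrays (0.0552 to 0.0835), and stood at -0.39 without sip1 sip2 replicate 3, 1 of the doubted arrays (0.0835), or without the 3 doubted arrays (0.0817).

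For SIP1 with GAL83 it was above 0 for REC8 at 2.36, HOP1 at 1.88, REC107 at 1.48, REC104 at 1.23 and SPO16 at 0.76. Quantile normalization ended the calls of HOP1 (0.246) and REC104 (0.579). Leaving out any 1 of 11 arrays ended those of REC104 (0.0506 to 0.0981) and SPO16 (0.0502 to 0.104), and leaving out the 3 doubted arrays that of SPO16 (0.0722). The term was below 0 for ZIP1 at -1.13, SAE3 at -0.97 and RIM4 at -0.90. With values under 3 raised to 3, SAE3 stood at -0.11 (0.831), and its call was lost without gal83 replicate 3 (0.055) or sip1 gal83 replicate 1 (0.0539).

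For SIP2 with GAL83 it was above 0 for SLZ1 at 3.65, REC104 at 2.55, IME2 at 1.49, DMC1 at 1.46, REC8 at 1.37, SPO16 at 1.33 and REC107 at 1.20. SLZ1 was lost without sip2 gal83 replicate 1 (2.60, 0.0608) or replicate 2 (2.89, 0.0663), without the 3 doubted arrays (0.0805) and with a spread for each strain (0.164), and stood at 1.29 with array weights (0.354). IME2 stood at 0.88 with array weights (0.125) and was lost with a spread for each strain (0.0588). Quantile normalization ended the calls of IME2 (0.559), DMC1 (0.221), REC8 (0.427) and SPO16 (0.617). The term was below 0 for RIM4 at -1.06 and SPO1 at -0.31. SPO1 was lost without any 1 of 12 arrays (0.0502 to 0.126) and with a spread for each strain (0.0971).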

How the results depend on the processing

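Counts of called genes among the 31 are given here. In the triple strain against the reference the count of 21 stayed within 1.5 times under all alternatives but 2: leaving out the lowest 25% of genes by mean, which keeps only 2 of the 31 genes, and raising values to the bound of those genes (9.746), which gave 1 and 5. For the other comparisons, named in the order sip1, sip2, gal83, sip1 gal83 and sip2 gal83 against the reference, leaving out the lowest genes gave 0, 0, 1, 0 and 0 and raising values gave 1 each, as it did in sip1 sip2. Leaving out the lowest genes gave 1, 1 and 2 for the interactions of SIP1 with SIP2, SIP1 with GAL83 and SIP2 with GAL83, 2, 1 and 1 for the triple strain against sip1 sip2, sip1 gal83 and sip2 gal83, and 2 for the F test. Raising values gave 2, 2 and 2, then 6, 4 and 4, and 5. Median centring gave 11 in sip1, 12 in sip2, 10 in gal83, 1 in sip1 gal83, 14 in sip2 gal83, and 14 for both interactions with GAL83. Quantile normalization gave 7 in gal83 and 1 in sip1 gal83, values under 3 raised to 3 gave 1 in sip1 gal83, and so did eBayes with trend and robust. Array weights gave 8 in sip2 and 5 for SIP2 with GAL83. The compared groups alone gave 7 in gal83, 3 in sip2 gal83, 13 for SIP1 with GAL83 and 13 for the triple strain against sip2 gal83. A separate spread for each strain gave 7, 3, 13 and 10 for the same comparisons. Without the 3 doubted arrays sip2 gal83 had 5. Leaving out 1 array at a time gave 3 to 7 in sip1, 2 to 6 in sip2, 3 to 6 in gal83, 0 in sip1 sip2, 0 to 3 in sip1 gal83, 4 to 8 in sip2 gal83 and 20 to 22 in the triple strain. It gave 8 to 11, 5 to 9 and 6 to 9 for the interactions, 21 to 23, 18 to 23 and 20 to 22 for the triple strain against the double strains, and 21 to 24 for the F test. After quantile normalization 3 values changed sign: IME2 in sip1 was 0.0516, IME2 for SIP1 with SIP2 was -0.0627 and SPO16 for SIP1 with GAL83 was -0.55. The causes were not tested.

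With replicate number as a replicate block the counts were 7, 5, 4, 0, 2, 8 and 21 against the reference, 10, 8 and 8 for the interactions, 22, 22 and 21 against the double strains and 24 for the F test. Calls against the double strains left aside, it ended that of SPO1 for SIP2 with GAL83 (0.051) and of no other named gene. Whether the numbers pair the samples was not settled. Same-numbered arrays of different strains had deviations correlated at -0.352 to 0.333 (84 pairs, median 0.0361). Pairs with different numbers had a median of -0.0177 (168 pairs). Deviations were taken from each strain's own mean, which ties these medians to each other, so the check cannot exclude pairing.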
